A study of Mus musculus with 8 samples.

Results

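Chemokines are small secreted proteins that steer leukocytes, and their receptors are G protein-coupled receptors on the cells they attract. The gene symbols that begin with Ccl, Cxcl, Ccr or Cxcr followed by a number, on array rows annotated with exactly 1 gene, gave 48 genes, 32 ligands and 16 receptors, of 22180 genes on the array. The RNA came from cultured mouse hepatocytes, the main working cells of the liver, of p16 knockout (p16-/-) mice and of p16 wild type (p16+/+) littermates. p16 is an inhibitor of the cyclin-dependent kinases CDK4 and CDK6, made from the gene Cdkn2a. Each group had 4 cultures and each culture 1 array. Cells of both groups were isolated by collagenase perfusion, plated with 10% serum, 100 nM insulin and 25 nM dexamethasone, changed at 16 h to medium with 1 mM glucose and 0.1% albumin, and harvested 8 h later, at 24 h. Dexamethasone is a glucocorticoid, a class of hormone known to repress inflammatory genes, and both groups received it. The sources used here do not give age, sex, strain or the extent of the deletion. The labels call the cultures biological replicates without saying that each came from its own mouse, so the spread behind each p-value is that of these cultures and may be technical.

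The family divides by structure and by the cells it attracts. CXC chemokines with the amino acids ELR before their cysteines, such as CXCL1 and CXCL2, act on CXCR2 and draw neutrophils, while the CC chemokines of the MCP type, such as CCL2, act on CCR2 and draw monocytes. Genes of both kinds are known targets of NF-kB, the transcription factor that tumour necrosis factor, interleukin-1 and bacterial products activate. CXCL9, CXCL10 and CXCL11 lack ELR, share the receptor CXCR3 on activated T and NK cells, and are known for induction by interferon-gamma, with CXCL10 also answering to type I interferon and NF-kB. In the liver, Kupffer cells, sinusoidal endothelial cells, stellate cells and hepatocytes can all make chemokines.

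All values are log2 expression values, and a change is knockout minus wild type on that scale. Hepatocyte markers were measured in both groups, and Alb, which encodes albumin, was at 13.57 in knockout and 13.54 in wild type cultures. All 15 hepatocyte markers with a row passed the filter on dim genes. All 20 endothelial markers passed it too, so passing does not show how pure the cultures were. Cdkn2a itself was at 4.53 ± 0.31 in knockout and 4.53 ± 0.28 in wild type cultures (SD, n = 4), and whether its row covers the deleted part is not known, so it checks no label. Knockout replicate 4 stood apart on the next-to-leading principal component, at -25.2, against -8.91 to 14.6 for the other 7 arrays.

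Of the 48 genes, 29 had a mean over the 8 arrays above the filter of 3.32 and were tested. In the knockout 9 of the 29 fell, 1 rose and 19 did not pass (limma across all genes, adjusted p under 0.05). Over all 15380 genes tested 13.8% passed in either direction, 6.76% by a fall and 7.02% by a rise, while 34.5% of the tested chemokine and receptor genes passed and 31.0% fell. The median change of the 29 was -0.14, against -0.02 for all genes tested. The groups did not overlap for 9 genes that were lower in every knockout culture and 2 that were higher, 11 of 29 in all, against 11.1%, 9.13% and 20.2% of all genes. All 10 genes that passed had means above the filter in both groups. In bulk RNA of a culture, fewer cells of a type and less RNA per cell cannot be told apart.

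**Figure D1:**
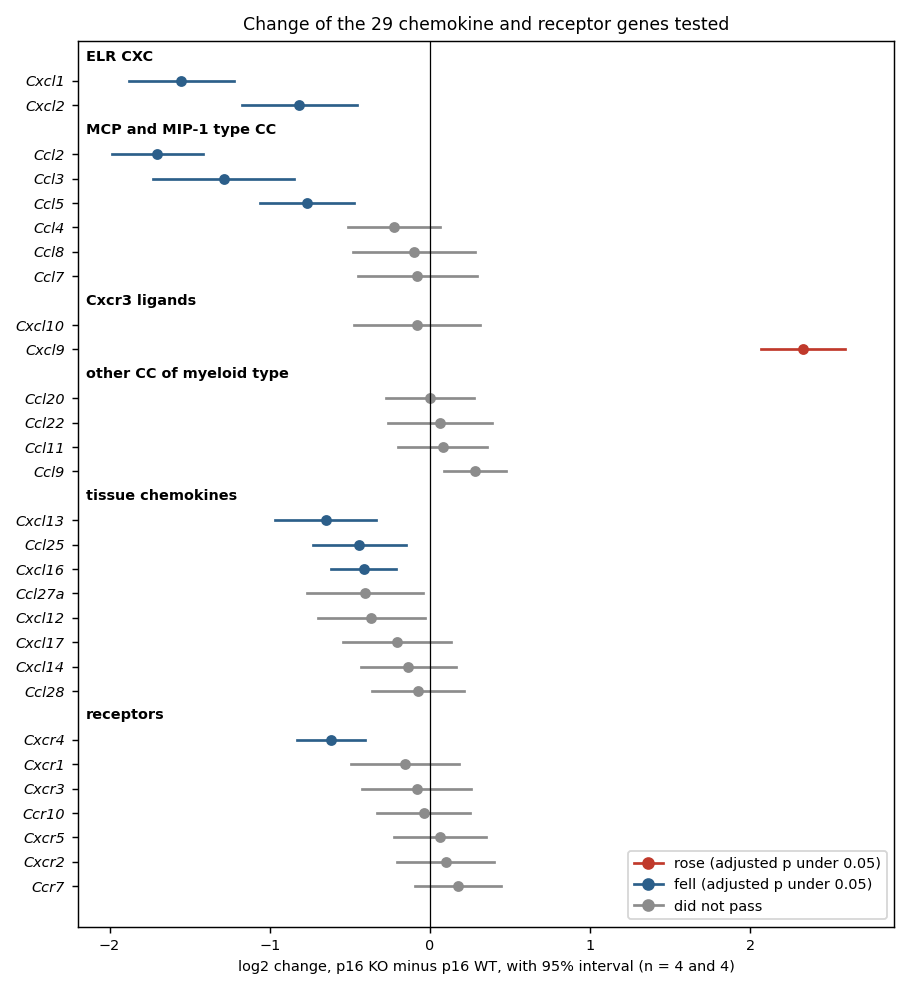
Log2 change (knockout minus wild type, horizontal axis) of the 29 genes tested, with 95% intervals from 4 knockout and 4 wild type arrays, ordered by role down the page. Cxcl9 lies far to the right at 2.33, Ccl2 and Cxcl1 farthest to the left at -1.70 and -1.55, and most receptors sit across 0.

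The neutrophil-attracting CXC chemokines that could be measured were both lower in the knockout. Cxcl1, whose product is the mouse keratinocyte chemoattractant KC, was at 4.89, 4.77, 4.86 and 5.25 in the knockout cultures, against 6.56, 6.86, 6.29 and 6.27 in the wild type cultures. The groups were far apart, with knockout replicate 4 the highest of its group. Its log2 change of -1.55 (SE 0.15, adjusted p = 5.33e-05) is a 2.93-fold fall and ranked 26 from the bottom among the 15380 genes. Cxcl2, which encodes MIP-2, was at 3.82, 3.64, 3.86 and 4.06 in the knockout cultures, against 4.84, 5.04, 4.52 and 4.24 in the wild type cultures. Here too the groups were apart, with wild type replicate 4 nearest to the knockout, and the fall was 0.81 (SE 0.16, adjusted p = 0.0067), or 1.76-fold. Cxcl3, Cxcl5 and Cxcl15, the other ELR chemokines, had means below the filter. Their receptor genes Cxcr2 (0.10, 95% interval -0.20 to 0.40) and Cxcr1 (-0.16, -0.49 to 0.18) did not pass, and the groups overlapped for both.

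The upstream sequences of Cxcl1 and Cxcl2 are shown because these neighbouring genes fell together and because each holds a kappaB-type site close to its start. They are the 150 bases before the start in RefSeq's GRCm38.p6, read 5′ to 3′ on the plus strand at chr5:90891095-90891244 for Cxcl1 and chr5:90903749-90903898 for Cxcl2, with the matched bases in capitals.
Cxcl1: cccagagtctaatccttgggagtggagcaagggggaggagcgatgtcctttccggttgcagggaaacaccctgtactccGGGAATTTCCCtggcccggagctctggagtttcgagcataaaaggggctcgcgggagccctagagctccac
Cxcl2: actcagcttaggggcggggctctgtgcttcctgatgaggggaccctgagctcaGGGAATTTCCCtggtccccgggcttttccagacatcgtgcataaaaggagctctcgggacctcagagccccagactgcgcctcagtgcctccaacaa
The motif searched was GGGA and TTCC with any 2 bases between them, on both strands. In Cxcl1 it begins 71 bases before the start and in Cxcl2 97 bases before it, and in both the plus and minus strand matches overlap by all but 1 base. The longest run that the 250-base upstream windows of the 2 genes share, 14 bases, contains the site. The motif is in the 250-base window of 1.36% of the 27025 genes with a promoter in the table, and in 6 of the 34 chemokine and receptor genes found there, namely Ccl1, Ccr3, Cxcl1, Cxcl2, Cxcl3 and Cxcl10. Of these, Cxcl1 and Cxcl2 fell, Cxcl10 did not pass and Ccl1, Ccr3 and Cxcl3 were below the filter. The other members that fell, Ccl2, Ccl3, Ccl5, Cxcl13, Cxcl16, Ccl25 and Cxcr4, are not among the 6. Which of them have a promoter among the 34 was not recorded, and the part of the site in any fall was not tested.

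**Figure D2:**
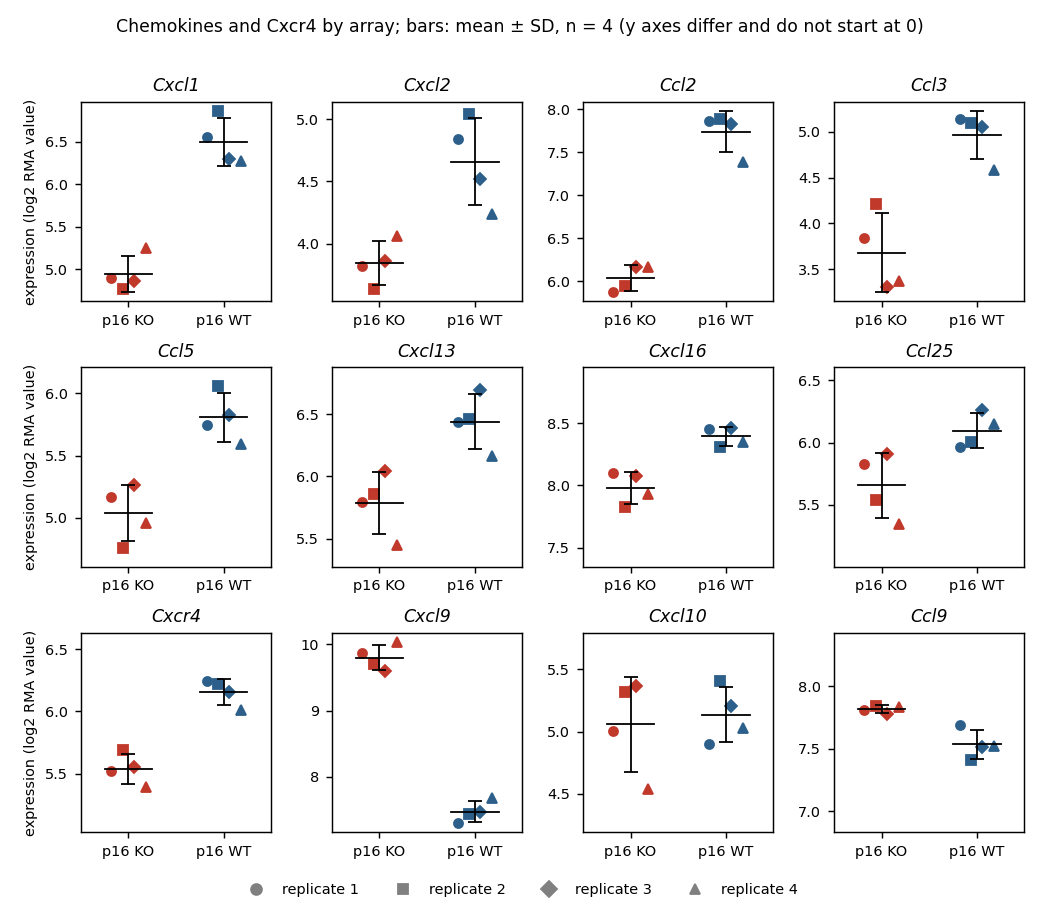
Log2 expression (vertical axis, a separate scale for each gene) of the 10 genes that passed and of Cxcl10 and Ccl9 on each array, with knockout cultures on the left and wild type on the right. Symbols mark the replicate and bars give the mean ± SD (n = 4). Knockout and wild type symbols share no height in any panel except that of Cxcl10.

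Among the CC chemokines that draw monocytes and lymphocytes, 3 of 6 tested fell and 3 did not pass. The falls made up 50%, against 6.76% of all genes. Ccl2, which encodes MCP-1, the main monocyte attractant, was at 5.87, 5.94, 6.17 and 6.16 in the knockout cultures, against 7.86, 7.88, 7.83 and 7.38 in the wild type cultures. The log2 change was -1.70 with an SE of 0.13 (adjusted p = 1.04e-05), a 3.25-fold fall, with all wild type values above all knockout values, and ranked 16 from the bottom among all genes. Ccl3, which encodes MIP-1 alpha, an attractant of monocytes and macrophages, was at 3.83, 4.22, 3.30 and 3.37 in the knockout cultures, against 5.15, 5.09, 5.05 and 4.58 in the wild type cultures. Its knockout values spread widely but stayed below every wild type value, a 2.44-fold fall (log2 change -1.29, SE 0.20, adjusted p = 0.00145). Ccl5, which encodes RANTES, an attractant of T cells and monocytes, was at 5.17, 4.76, 5.26 and 4.96 in the knockout cultures, against 5.75, 6.06, 5.83 and 5.59 in the wild type cultures. This is a 1.70-fold fall (log2 change -0.77, SE 0.13, adjusted p = 0.00285), again without overlap.

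The close relatives of these genes did not pass. Ccl7, which encodes MCP-3 and lies next to Ccl2 on chromosome 11, was at 5.32, 5.34, 4.91 and 5.76 in the knockout cultures, against 5.62, 5.32, 5.15 and 5.56 in the wild type cultures. The groups overlapped fully, and the change of -0.08 had a 95% interval of -0.45 to 0.29, which does not meet the interval of -1.99 to -1.42 for Ccl2. Ccl4, which encodes MIP-1 beta and lies next to Ccl3, had a change of -0.22 (-0.51 to 0.06), against -1.73 to -0.85 for Ccl3. The value of 4.14 occurs on 3 of its arrays (knockout replicates 1 and 2 and wild type replicate 2). Other members also repeat a value, among them Ccl7 (5.32 in knockout replicate 1 and wild type replicate 2) and Ccl20. Ccl8, which encodes MCP-2, had a change of -0.10 (-0.48 to 0.28). Ccl12, the mouse MCP-5 gene, was below the filter, and so were the receptor genes Ccr1 and Ccr2.

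The interferon-gamma chemokines did not move together. Cxcl9, which encodes MIG, was at 9.87, 9.70, 9.60 and 10.03 in the knockout cultures, against 7.30, 7.44, 7.47 and 7.68 in the wild type cultures. Every knockout culture lay far above every wild type culture, and the rise was 5.02-fold (log2 change 2.33, SE 0.12, adjusted p = 1.32e-06), ranked 9 from the top among all genes tested. Cxcl10, which encodes IP-10, was at 5.004, 5.32, 5.37 and 4.54 in the knockout cultures, against 4.90, 5.41, 5.21 and 5.03 in the wild type cultures. Its groups overlapped, with the lowest of the 8 values in knockout replicate 4, and the change of -0.08 had an SE of 0.18 and an adjusted p of 0.83. The 95% interval was -0.47 to 0.32 for Cxcl10 and 2.07 to 2.59 for Cxcl9. Without knockout replicate 4 the change of Cxcl10 was 0.09 (adjusted p = 0.716), and leaving out wild type replicate 2 also turned its sign (0.01). Cxcl11, the third ligand, was below the filter, with 2.91, 4.09, 2.81 and 2.95 in the knockout cultures, against 2.57, 3.49, 3.62 and 3.93 in the wild type cultures, and had high and low arrays in both groups. The shared receptor gene Cxcr3 had a change of -0.08 (-0.42 to 0.26) and did not pass.

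Set beside these, the 11 chemokine genes listed as NF-kB targets (Cxcl1, Cxcl2, Cxcl3, Cxcl5, Ccl2, Ccl3, Ccl4, Ccl5, Ccl7, Ccl12 and Ccl20) had 8 tested members, of which 5 fell, none rose and 3 did not pass. Their median change was -0.79, against -0.02 for all genes tested. Falls made up 62.5% of the tested members, against 6.76% of all genes. The list was drawn up with earlier results of these data known, so these values only describe it. Cxcl9 thus changed in the direction opposite to every NF-kB chemokine that passed, and Cxcl10 in neither.

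The upstream sequences of Cxcl9 and Cxcl10 are shown because these neighbours share a receptor and an inducer but differ in change. They are the 250 bases before each start in GRCm38.p6, read 5′ to 3′ on the minus strand, at chr5:92328080-92328329 for Cxcl9 and chr5:92348890-92349139 for Cxcl10, with matches in capitals.
Cxcl9: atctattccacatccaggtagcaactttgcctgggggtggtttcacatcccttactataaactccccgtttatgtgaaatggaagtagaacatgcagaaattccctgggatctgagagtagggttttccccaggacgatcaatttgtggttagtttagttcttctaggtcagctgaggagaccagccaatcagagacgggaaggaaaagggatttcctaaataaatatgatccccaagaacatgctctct
Cxcl10: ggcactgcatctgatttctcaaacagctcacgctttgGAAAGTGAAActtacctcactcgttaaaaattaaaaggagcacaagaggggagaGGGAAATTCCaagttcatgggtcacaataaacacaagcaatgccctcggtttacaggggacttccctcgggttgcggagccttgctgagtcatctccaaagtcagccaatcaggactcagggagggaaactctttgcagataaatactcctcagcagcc
The capitals in Cxcl10 mark, from the left, a match to the ISRE-type motif (GAAA and GAAA with any 2 bases between them) that begins 213 bases before the start and the kappaB-type motif of Cxcl1 and Cxcl2, 159 bases before it. They do not overlap. Cxcl9 holds neither motif in this window, and neither gene holds the GAS-type motif (TTC and GAA with any 3 bases between them). Sites that differ from these fixed patterns are missed, so the lack of a match does not show that a site is absent. These motifs too were searched on both strands. The ISRE-type motif is in 3.46% and the GAS-type motif in 8.13% of all 250-base windows, and in 2 (Cxcl10 and Cxcl14) and 4 (Ccl17, Ccr1l1, Ccr6 and Cxcl14) of the 34 chemokine and receptor genes.

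Neighbours on a chromosome differed in their calls. By RefSeq's gene order, Cxcl9, Cxcl10 and Cxcl11 lie in 1 run on chromosome 5, with only Art3 among them, which was below the filter. Of the 5 nearest array genes on either side of that run, Sdad1, adjacent to Cxcl9, fell by 0.39 (adjusted p = 0.0148), 6 others had changes of -0.37 to 0.33 and did not pass, and 3 were below the filter. The ELR chemokines among the 48 genes form a separate run on chromosome 5, where Cxcl1 and Cxcl2 fell and Cxcl3, Cxcl5 and Cxcl15 were below the filter. Ppbp and Pf4, chemokine genes with other symbols, lie inside this run and were below the filter too. Chromosome 11 carries 14 of the 48 genes, of which 11 were tested and 4 fell, while falls made up 6.76% of all genes tested. In its run of Ccl5, Ccl9, Ccl6, Ccl3 and Ccl4, changes of -0.77 and -1.29 stood beside 0.28 for Ccl9 and -0.22 for Ccl4.

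Chemokines of tissue upkeep and lymphocyte homing gave 3 smaller falls among 8 tested genes (37.5%, against 6.76% of all genes). Cxcl13, the B cell attractant that acts on CXCR5, was at 5.80, 5.86, 6.04 and 5.45 in the knockout cultures, against 6.44, 6.46, 6.70 and 6.16 in the wild type cultures. All knockout values were lower, a fall of 0.65 (SE 0.14, adjusted p = 0.0112). Cxcl16, a membrane-bound chemokine and scavenger receptor that acts on CXCR6, was at 8.10, 7.83, 8.07 and 7.93 in the knockout cultures, against 8.45, 8.31, 8.46 and 8.35 in the wild type cultures. It fell by 0.41 (SE 0.09, adjusted p = 0.0128), with a narrow spread in both groups. Ccl25, known from thymus and small intestine as the ligand of CCR9, was at 5.83, 5.54, 5.91 and 5.34 in the knockout cultures, against 5.96, 6.01, 6.26 and 6.15 in the wild type cultures. Its change of -0.44 (SE 0.13) passed narrowly at an adjusted p of 0.0499, and leaving out any of knockout replicates 1, 2 and 4 or wild type replicates 1 to 4 ended the call (adjusted p = 0.0546 to 0.127).

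Cxcl12 and its receptor Cxcr4, the pair that keeps blood progenitors in the marrow, differed in their calls. Cxcr4 was at 5.52, 5.69, 5.56 and 5.40 in the knockout cultures, against 6.24, 6.22, 6.16 and 6.01 in the wild type cultures. It fell by 0.62 (SE 0.10, adjusted p = 0.00145), without overlap, and was the 1 receptor of 7 tested that passed. The share called was 14.3% of these receptors, near the 13.8% of all genes. Cxcl12 was at 4.38, 4.64, 3.82 and 4.23 in the knockout cultures, against 4.47, 4.70, 4.64 and 4.71 in the wild type cultures. Knockout replicate 2 lay among the wild type values, and the change of -0.37 (SE 0.15) had an adjusted p of 0.149. Of the other tissue chemokines, Ccl27a had a change of -0.41 (adjusted p = 0.137), while its other array row, of lower mean, differed by -0.0040. Cxcl17 (-0.20), Cxcl14 (-0.14) and Ccl28 (-0.07) did not pass. The receptors Ccr7 (0.18), Cxcr5 (0.06) and Ccr10 (-0.04) did not pass either, and the receptor genes Cxcr6 and Ccr9 were below the filter.

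Of the 4 tested CC chemokines of macrophages and type 2 responses none passed. Ccl9, which encodes MIP-1 gamma, a mouse ligand of CCR1, was at 7.81, 7.84, 7.78 and 7.84 in the knockout cultures, against 7.69, 7.41, 7.52 and 7.52 in the wild type cultures. All knockout values were above all wild type values, yet the change of 0.28 (SE 0.09) had an adjusted p of 0.0553, and 6 of 19 alternative settings brought it past the threshold (adjusted p = 0.0245 to 0.0455). Ccl11, which encodes the eosinophil attractant eotaxin, had a change of 0.08 (-0.20 to 0.36). Ccl22, a ligand of CCR4, had one of 0.06 (-0.26 to 0.38) and Ccl20, the ligand of CCR6, one of -0.0020 (-0.28 to 0.27). Ccl6, Ccl17, Ccl24 and Ccl26 were below the filter.

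The 19 genes below the filter were 10 ligands and 9 receptors. The ligands were Ccl1, Ccl6, Ccl12, Ccl17, Ccl24, Ccl26, Cxcl3, Cxcl5, Cxcl11 and Cxcl15, and the receptors were Ccr1, Ccr1l1, Ccr2, Ccr3, Ccr4, Ccr6, Ccr8, Ccr9 and Cxcr6. Their means over the 8 arrays ran from 1.79 to 3.30, single values from 1.42 to 4.09, and knockout minus wild type differences of means from -0.33 to 0.23. The groups overlapped for all 19. A dim value on an array does not show that a gene is silent. A further 33 array rows name a chemokine together with other genes, mostly the Ccl19, Ccl21 and Ccl27 copies, and were not used.

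Of 21 tested subunit, inhibitor and feedback genes of the wider NF-kB pathway 6 fell, 1 rose and 14 did not pass, with a median change of -0.22. Falls made up 28.6% of the list, against 6.76% of all genes. The 4 falls of smallest p were Ier3 (-0.98), an early response gene, Vcam1 (-0.92), a leukocyte adhesion molecule, Tnfaip3 (-0.93), which encodes the feedback inhibitor A20, and Nfkb2 (-0.46), which encodes the p100 precursor. Nfkbia, which encodes the inhibitor IkB alpha and is itself a target, fell by 0.53 (adjusted p = 0.00725), while Bcl3, a nuclear IkB protein, rose by 0.67 (adjusted p = 7.02e-04). Rela, which encodes the p65 subunit, was at 10.08 ± 0.17 in knockout and 9.87 ± 0.10 in wild type cultures (SD, n = 4) and did not pass (adjusted p = 0.234).

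Cytokines, toll-like receptors and receptors upstream of NF-kB moved both ways, with 4 falls, 4 rises and 10 that did not pass among 18 tested, and a median of -0.12. The share called was 44.4%, against 13.8% of all genes. The falls were the macrophage growth factor gene Csf1 (-1.17), Il1rn (-0.86), which encodes the interleukin-1 receptor antagonist, the adaptor gene Myd88 (-0.70) and the endotoxin receptor gene Tlr4 (-0.61). The rises were Ly96 (0.55), which encodes the endotoxin co-receptor MD-2, Il1rap (0.45), Traf6 (0.49) and Tnfrsf1a (0.34). Tnf was at 3.80 ± 0.25 in knockout and 4.29 ± 0.31 in wild type cultures and did not pass (adjusted p = 0.0766), and Il1b and Il6 were below the filter.

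Interferon-gamma genes changed in both directions. Of 22 tested pathway and target genes 2 rose, 3 fell and 17 did not pass, with a median change of -0.11. The share called was 22.7%, against 13.8% of all genes. The rises were H2-Ab1 (0.75), an MHC class II gene, and Iigp1 (0.65), an interferon-induced GTPase gene. The falls were Cd274 (-0.59), which encodes PD-L1, Irf8 (-0.43) and the receptor subunit gene Ifngr2 (-0.38), while Ifngr1 had a change of 0.41 (adjusted p = 0.0554). Irf1, an interferon-induced transcription factor gene, was at 4.85 ± 0.20 in knockout and 5.23 ± 0.18 in wild type cultures, lower in every knockout culture, and did not pass (adjusted p = 0.0675). Of 18 tested genes of type I interferon 3 rose, none fell and 15 did not pass, with a median of 0.10 and a share called of 16.7%, near the 13.8% of all genes. They were Oasl1 (0.51), Zbp1 (0.47) and Mx2 (0.56), and without knockout replicate 2 only 1 rose.

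Chemokine genes with other symbols gave no call (limma, 0 of 8 tested, with 0 at an unadjusted p under 0.05). Cx3cl1, the membrane-bound fractalkine gene, had a change of 0.12, its receptor gene Cx3cr1 one of 0.0058, the CXCL12 scavenger Ackr3 one of 0.26 and Ccrl2 one of -0.25.

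**Figure D3:**
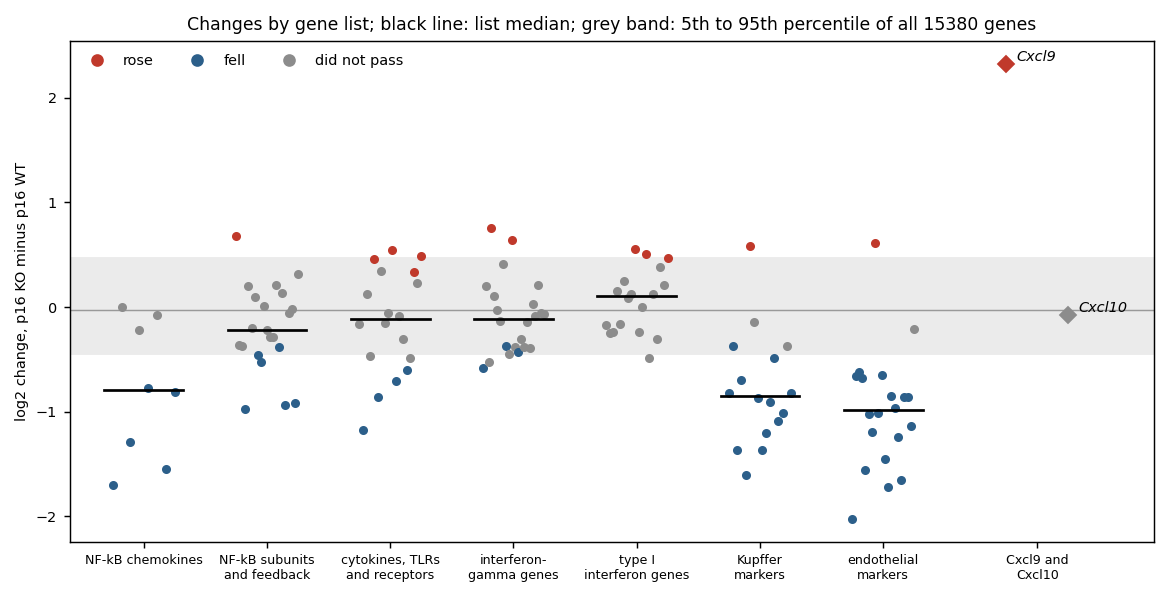
Log2 change (knockout minus wild type, vertical axis) of each tested gene in 7 lists, with Cxcl9 and Cxcl10 at the right. Black lines are list medians and the grey band spans the 5th to 95th percentile of all genes tested (-0.44 to 0.47). The medians of NF-kB chemokines (-0.79), Kupffer markers (-0.85) and endothelial markers (-0.99) lie below the band, and those of the interferon lists within it.

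Markers of other liver cells were lower on the same knockout arrays. Falls made up 81.25% of the tested Kupffer, 90% of the endothelial and 42.9% of the stellate markers, against 6.76% of all genes. Of 16 tested Kupffer cell markers 13 fell and 1 rose, and the mean of the list was 4.38 to 4.46 on knockout arrays, against 5.16 to 5.28 on wild type arrays. Ctss, Fcer1g, C1qb and Cybb had the smallest p among the falls (-1.37, -0.91, -1.37 and -1.20) and Adgre1, a macrophage surface receptor gene, fell by 0.83, while Clec4f, the marker particular to mouse Kupffer cells, had a change of -0.14 and did not pass. Cd68 rose by 0.58, and Timd4, Aif1, Cd163 and Msr1 were below the filter. Of 20 endothelial markers 18 fell and Flt1 rose, with list means of 4.56 to 4.82 on knockout and 5.61 to 5.78 on wild type arrays, led by Cdh5 (-2.03), Eng (-1.56), Lyve1 (-1.72) and Pecam1 (-1.24). Of 14 stellate markers 6 fell, among them Rgs5 (-1.65), Dcn (-2.13), Ecm1 (-0.95) and Lrat (-1.47), and Reln rose, with list means of 4.26 to 4.39 on knockout and 4.89 to 4.95 on wild type arrays. The part of these cells in the lower chemokine values was not tested.

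Most markers of the leukocytes that chemokines attract were below the filter. Of 12 neutrophil markers 8 were below the filter, among them S100a8 (1.80 in knockout, 1.89 in wild type) and S100a9 (3.13 in knockout, 3.02 in wild type), and none of the other 4 passed. Of 13 lymphocyte markers with a row 8 were below the filter and none of 5 tested passed. Of 7 monocyte markers 4 were below the filter, and of the 3 tested Itgam fell by 0.70 (33.3%, against 6.76% of all genes). Of 5 dendritic cell markers tested Cd209a rose (0.47), a share called of 20%, against 13.8% of all genes. That call ended without wild type replicate 1 and with the gene's rows averaged, and none of 4 bile duct markers passed. Hepatocyte markers were higher, with 9 of 15 rising (60%, against 7.02% of all genes) and none falling. The rises were led by Arg1 (2.69), Cps1 (1.32), Pck1 (2.47) and Hpd (1.84). List means were 10.06 to 10.25 on knockout arrays, against 9.25 to 9.50 on wild type arrays. Cxcl9, whose product macrophages, endothelial cells and hepatocytes can all make, rose on these arrays, and the part of any cell type in its rise was not tested.

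**Figure D4:**
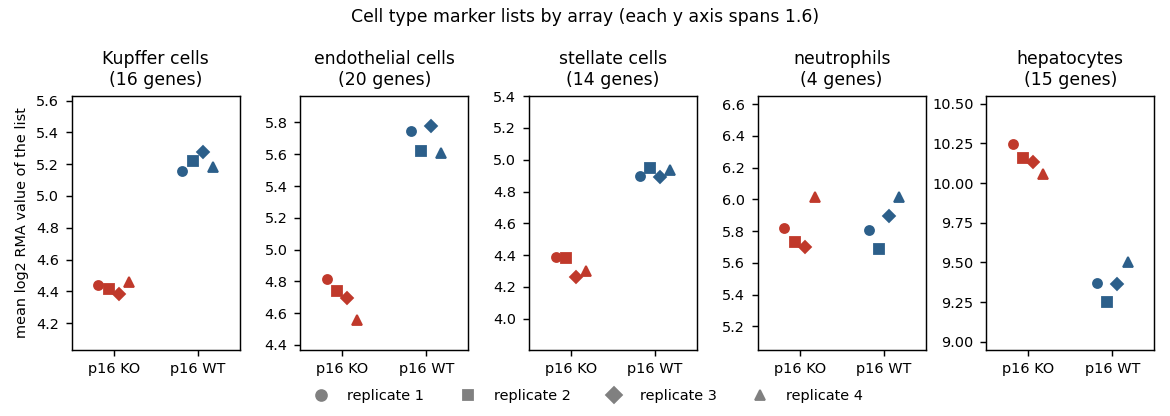
Mean log2 value of 5 marker lists (vertical axis, each spanning 1.6 units) on each array, with knockout cultures on the left and wild type on the right and symbols for the replicate. Kupffer, endothelial and stellate list means are lower and hepatocyte list means higher on all 4 knockout arrays, and the neutrophil values of the groups overlap.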

How the data were processed

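RNA of 4 p16 knockout and 4 p16 wild type hepatocyte cultures was labelled with biotin and hybridised to expression arrays, 1 per culture. The authors deposited log2 values made with RMA in the oligo package, per the submitters' processing notes, without versions. RMA removes changes shared by all genes and compresses those of dim genes. The values were used as deposited. Of 41345 rows 23521 carry 1 symbol, and the row of highest mean over the 8 arrays stood for a gene. Genes with a mean above the 40th percentile of all rows (3.32) were tested. Precision is limited by 4 arrays per group.

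The knockout minus wild type difference was fitted for 15380 genes with lmFit and eBayes, without an intensity trend, of limma 3.58.1 (R 4.3.3). Degrees of freedom were 6 from the residuals and 5.05 from the prior. P-values were adjusted by Benjamini-Hochberg over all of these genes. P-values are two-sided and errors of changes are moderated standard errors. The fit was tested on simulated data. Promoters are RefSeq's (GRCm38.p6), and figures were drawn in Python 3.11.15. The members and the lists of textbook genes were chosen with earlier results of these data known. Named are all members, up to 4 genes of smallest p per list and direction, and some genes fixed by name whatever their result. Alternatives were other dim-gene filters, row rules, scalings, variance models, array weights, thresholds, the replicate number as a block, and each array left out.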

Additional observations from a re-analysis of the deposited data

Results flagged for a closer look

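Among 58 groups of 4 arrays (29 genes in 2 groups) 6 held 1 array far from the other 3, by the gap to its nearest neighbour as a share of the range, a screen that flags about 1 group in 20 by chance. Ccl2 was at 7.38 in wild type replicate 4, with the other wild type cultures at 7.83 to 7.88. Ccl22 was at 3.88 in wild type replicate 2, with the other wild type cultures at 3.18 to 3.29. Ccl3 was at 4.58 in wild type replicate 4, with the other wild type cultures at 5.05 to 5.15. Ccl4 was at 3.86 in knockout replicate 4, with the other knockout cultures at 4.13 to 4.14. Ccr7 was at 3.52 in wild type replicate 1, with the other wild type cultures at 3.85 to 3.88. Cxcr5 was at 4.05 in knockout replicate 4, with the other knockout cultures at 3.58 to 3.61. Wild type replicate 4 was thus the low array for both Ccl2 and Ccl3, and both falls passed without it.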

How the results depend on the processing

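At the threshold of 0.05, 9 of the 10 calls among chemokine and receptor genes held in every other fit that tested the gene, with changes of 2.25 to 2.40 for Cxcl9, -1.82 to -1.65 for Ccl2 and -1.66 to -1.43 for Cxcl1; Cxcl2 was not tested under the 60th percentile filter. Ccl25 was lost in 10 of 19 such fits. At an adjusted p of 0.01, 7 members were called, without Cxcl13, Cxcl16 and Ccl25, and with a 1.5-fold minimum 8, without Cxcl16 and Ccl25. The number of members that rose was 2, with Ccl9 added, under the 60th percentile filter, cyclic loess, quantile normalization and the intensity trend, plain or robust. Leaving out 1 array at a time gave 9 to 10 members called, 8 to 9 lower, 1 to 2 higher and 5 NF-kB chemokines lower, with 1448 to 2165 genes called in all, 20 to 25 in the pathway lists and 47 to 53 in the cell lists. Genes called in all numbered 1071 at an adjusted p of 0.01 and 895 with a 1.5-fold minimum, and pathway genes 15 and 11. With the replicate number as a block, 10 members were called, as without it, and 2215 genes in all, against 2119; deviations of same-numbered arrays correlated at 0.0196 to 0.263 and 2 of 4 numbers matched best with themselves, so the numbers were not taken as pairs.

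Some genes that did not pass changed sign, and none was called; the cause was not tested. Leaving out 1 array at a time, the change ran from -0.233 to 0.0373 for Ccl8, -0.223 to 0.0601 for Ccl7, -0.182 to 0.0941 for Cxcl10, -0.175 to 0.0490 for Ccl28, -0.0957 to 0.0957 for Ccl20, -0.0106 to 0.223 for Ccl22, -0.249 to 0.0105 for Cxcr3, -0.121 to 0.0451 for Ccr10, -0.0493 to 0.141 for Cxcr5 and -0.0374 to 0.204 for Cxcr2. Array weights gave 0.0545 for Cxcl10 and -0.0021 for Cxcr5. For Ccl20 cyclic loess gave 0.0191, median centring 0.0323 and quantile normalization 0.0463.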
